A study of Homo sapiens with 9 samples.

Results

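The genes described here are 48 interferon-stimulated effector genes, a set of antiviral and regulatory genes that includes the IFIT, IFITM, PARP and TRIM families. They were listed by name as known interferon-stimulated genes, with no rule on their values but with earlier results of these data known. The shares set against all genes below are thus those of a list not chosen blind to the data. All 48 were found by symbol among the 27111 genes of the deposited tables. RNA-seq was run on multicellular tumor spheroids (MTSs) of PC3, a prostate cancer line from a bone metastasis, grown in Matrigel. The cells had been transduced with lentivirus and selected with puromycin. Empty cells carried the pSIN vector alone, NF-YAl cells overexpressed the long splice isoform of NF-YA, and NF-YAs cells the short isoform, both from murine sequence. NF-YA is the DNA-binding subunit of NF-Y, which binds the CCAAT box. The comparison asks how each isoform changes expression in spheroids. Each group had 3 libraries, each from pooled spheroids of 1 of 3 independent experiments, labelled A, B and C for Empty and for NF-YAs but A, B and D for NF-YAl. Each condition rests on 1 transduced line, so the p-values measure the spread between experiments and not between independently made lines.

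Type I and type III interferons bind their receptors and activate the kinases JAK1 and TYK2. The factor ISGF3, which holds STAT2 and IRF9, then binds the interferon-stimulated response element (ISRE) in the promoters of these genes. Many also keep a low level of expression without added interferon, through unphosphorylated STATs and IRF proteins. Their products block viral entry, bind or edit RNA, tag proteins with ISG15 and feed back on the pathway. In tumor cells, such genes are often expressed without infection.

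Sequences upstream of the start sites are shown because the ISRE is the feature that these genes are known to share and CCAAT is the motif that NF-Y binds. RefSeq promoter windows (GRCh38.p14) were given for 41 of the 48 genes, with 58 windows in all, and the 250 bases before each start were searched on both strands. LAMP3, IFIT2, PARP10, USP18, IFITM2, MX2 and TRIM22 had no window. The ISRE core was searched as GAAANNGAAA and the NF-Y box as CCAAT, and matches of the 2 can overlap by at most 1 base. The core was present in 31 of 58 windows (53.4%) of these genes, against 1061 of 35116 windows (3.02%) of all genes. CCAAT was present in 19 of 58 windows (32.8%), against 32.0% of all windows. Of the genes that later counted as down-regulated in NF-YAl, 23 of 41 windows (56.1%) held the core and 15 (36.6%) held CCAAT. Some genes have more than 1 window. Counted by gene, CCAAT was present in 17 of the 41 genes and in 14 of the 28 down-regulated ones. Both are higher shares than the 10102 of 27305 among all genes with a window. These differences were not tested. A match is a description of these letters and not a site of binding.
Stretches of the windows follow, 5′ to 3′ along the gene's strand, with every match to the core in capitals, read as GAAANNGAAA or as its reverse complement TTTCNNTTTC. Overlapping matches form 1 run, and in IFIT3 the first capital is the end of another match. Positions were found by an exact match to GRCh37, the build of the authors' files. The IFITM3 stretch also lies inside an unnamed gene on the plus strand, and the IFIT3 stretch inside LIPA on the minus strand.
ISG15 (chr1:948745-948804, plus strand, within an intron of a longer ISG15 transcript): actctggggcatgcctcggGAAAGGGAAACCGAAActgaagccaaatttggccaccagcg
IFI6 (chr1:27998762-27998821, minus strand, upstream of the gene and inside an unnamed gene on the plus strand): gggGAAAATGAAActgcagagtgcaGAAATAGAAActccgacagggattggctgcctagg
IFI27 (chr14:94576962-94577021, plus strand, within an intron of a longer IFI27 transcript): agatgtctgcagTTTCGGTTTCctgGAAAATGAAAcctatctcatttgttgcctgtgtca
IFIT3 (chr10:91087607-91087666, plus strand, within an intron of a longer IFIT3 transcript): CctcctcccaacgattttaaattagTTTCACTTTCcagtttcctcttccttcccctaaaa
IFITM3 (chr11:320861-320920, minus strand, within an intron of a longer IFITM3 transcript): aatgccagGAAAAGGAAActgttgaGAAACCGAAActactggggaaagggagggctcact
SAMD9 (chr7:92747394-92747453, minus strand, upstream of the gene): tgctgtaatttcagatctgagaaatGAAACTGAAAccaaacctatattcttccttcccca
PARP14 (chr3:122399632-122399685, plus strand, upstream of the gene): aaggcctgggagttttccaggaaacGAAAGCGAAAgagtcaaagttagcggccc
In ISG15, 2 matches overlapped, the nearer one starting 107 bases before the start site. IFI27 held matches on both strands, and IFITM3 held 2 on one strand. In IFI6 the letters attgg, which are CCAAT on the other strand, lay 72 bases before the start and were not capitalised.

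The libraries held 18076979 to 27163976 expected counts. Human NFYA, to which reads of the murine transgenes can align in part, was at 91.8 ± 4.24 CPM (SD, n = 3) in Empty, at 341 ± 49.3 in NF-YAl and at 261 ± 5.71 in NF-YAs. The keratins KRT8, KRT18 and KRT19 were above 100 CPM in each group, while KLK3 had no counts. The 5 epithelial markers summed to 1170 to 1290 CPM in the Empty libraries, 744 to 759 in NF-YAl ones and 729 to 833 in NF-YAs ones. The keratins made up most of this sum and fell in both lines, while EPCAM, at 0.982 CPM in Empty, rose in both (log2FC 2.16 and 1.46) and CDH1 fell in NF-YAs (-1.33) and did not pass the test in NF-YAl (0.17). Of 9 immune markers, 5 did not pass the filter on low counts in any group, among them PTPRC with at most 12 counts in a library and MS4A1 with 0. The summed level of the 9 ran from 56.8 to 73.8 CPM in Empty, from 23.1 to 38.8 in NF-YAl and from 30.5 to 38.6 in NF-YAs, nearly all of it CD68, which fell in both lines and is also expressed outside immune cells. ITGAM, at 0.214 CPM in Empty, rose in both lines (log2FC 1.92 and 2.20), and CD14 and CSF1R did not pass the test in either. The 4 fibroblast markers summed to at most 1.29 CPM, and the 3 endothelial markers to 12.6 to 14.2 CPM in the Empty libraries, 6.13 to 7.05 in NF-YAl ones and 7.81 to 8.66 in NF-YAs ones. Of the endothelial markers, VWF fell in NF-YAl (log2FC -3.23) and PECAM1 in NF-YAs (-1.73), and neither passed the test in the other line. The part of these markers in the results below was not tested. Levels are in CPM, the counts scaled to library size after TMM, and values per library are given in the order of the letters. In these bulk samples, fewer cells expressing a gene and less RNA of it per cell cannot be told apart.

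The interferon-stimulated genes were lower in NF-YAl than in Empty almost throughout, and less so in NF-YAs. A gene was said to fall or rise when its edgeR adjusted p was under 0.01, and was counted as a DEG when its |log2FC| was also above 1. Of the 48 genes, 46 passed the filter on low counts. In NF-YAl, 43 of the 46 fell (93.5%, against 9.54% of all 17108 tested genes) and 33 were DEGs (71.7%, against 3.50%). LAMP3 was the 1 gene that rose (2.17%, against 10%), and none was a DEG upward by edgeR or DESeq2 (against 4.76%). LAMP3 was also the 1 gene that was higher at an unadjusted p under 0.05. The median log2FC was -1.41, and 0.01 over all genes. IFITM2 and CMPK2 did not pass the test, with log2FC of -0.42 (adjusted p = 0.0225) and -1.15 (adjusted p = 0.019). Every NF-YAl library was below every Empty library in 45 genes, all but LAMP3 (97.8%, against 21.4%).

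In NF-YAs, 15 of the 46 genes fell (32.6%, against 10.5% of all genes) and 2 rose (4.35%, against 12.1%). IFI44L, MX2, DDX60L and SAMD9 were DEGs downward (8.7%, against 3.90%), and LAMP3 was the 1 DEG upward (2.17%, against 5.44%). The median log2FC was -0.51, and -0.00 over all genes. Every NF-YAs library was below every Empty library in 32 genes (69.6%, against 27.1%). NF-YAs replicate A was the lowest library of its group in 46 of 46 genes, while it was the lowest in 36.3% of all genes. Without it, 8 genes fell instead of 15, MX2 was the only DEG downward in place of 4, and RTP4, which then passed the filter, became a second DEG upward. Without Empty replicate A, 9 genes fell, and without Empty replicate C, the highest Empty library in 35 of the 46 genes, 8 fell and 2 were DEGs downward.

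Compared directly, 35 of the 46 genes were lower in NF-YAl than in NF-YAs (76.1%, against 6.25% of all genes) and 22 of them were DEGs (47.8%, against 2.86%). None was higher in NF-YAl by edgeR (against 4.70%), and none was a DEG upward (against 1.74%). DESeq2 also gave 0, as did an unadjusted p under 0.05. The median log2FC was -0.97. All NF-YAl libraries were below all NF-YAs libraries in 39 genes (84.8%, against 20.9%). The full order of NF-YAl below NF-YAs below Empty, with no overlap, held in 26 genes (56.5%, against 2.61%). The count of DEGs dropped from 22 to 14 without NF-YAl replicate B, to 14 without NF-YAs replicate B and to 13 without NF-YAs replicate C, and the count of lower genes from 35 to 22 and 21 without NF-YAs replicates B and C. The comparisons share libraries, so they are not independent of each other.

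**Figure D1:**
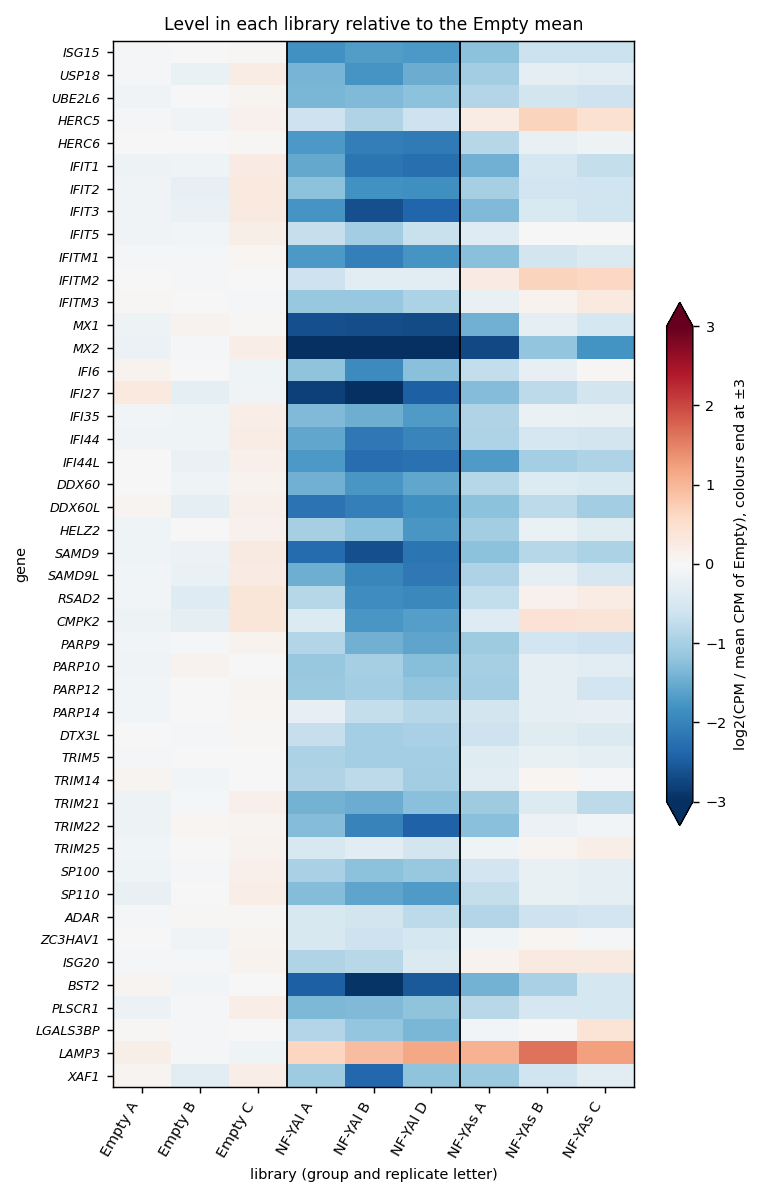
Each column is a library and each row 1 of the 46 tested genes, with colour giving log2 of its CPM over the mean CPM of Empty (blue lower, red higher). The NF-YAl columns are blue in nearly all rows, NF-YAs replicate A is bluer than replicates B and C, and LAMP3 is the row that is red in both lines.

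The summed level of the 48 genes was 5870, 5910 and 6440 CPM in the Empty libraries, 2930, 2550 and 2430 CPM in those of NF-YAl, and 3580, 4880 and 5000 CPM in those of NF-YAs. The groups did not overlap in this sum. As the median over genes of the log2 difference from the Empty mean, the NF-YAl libraries were at -1.20, -1.49 and -1.49, and the NF-YAs libraries at -0.87, -0.28 and -0.35. Replicate A was therefore the highest of NF-YAl and the lowest of NF-YAs.

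ISG15, a ubiquitin-like protein that is conjugated to other proteins and also secreted, was the most abundant of these transcripts in Empty per length, at 1040 ± 152 TPM (SD, n = 3). ISG15 was measured at 463, 475 and 483 CPM in the Empty libraries, 134, 149 and 144 in the NF-YAl libraries and 203, 303 and 304 in the NF-YAs libraries. No library of one group overlapped another group. The log2FC was -1.73 ± 0.14 in NF-YAl (adjusted p = 4.96e-06) and -0.81 ± 0.14 in NF-YAs (adjusted p = 0.000705), so ISG15 fell 3.33-fold and 1.75-fold. UBE2L6, the E2 enzyme that loads ISG15, was at 72.7, 78.7 and 83.4 CPM in the Empty libraries, 30.3, 31.4 and 33.1 in the NF-YAl libraries and 42.7, 53.6 and 51.1 in the NF-YAs libraries. It followed the same order and fell by 1.31 and 0.67 on the log2 scale. USP18, the protease that removes ISG15 and blocks receptor signaling, was at 28.3, 25.6 and 34 CPM in the Empty libraries, 11.1, 8.63 and 10.4 in the NF-YAl libraries and 14.2, 24 and 23.4 in the NF-YAs libraries. It fell in NF-YAl (log2FC -1.55 ± 0.20) and did not pass the test in NF-YAs (-0.51 ± 0.19, adjusted p = 0.0513). Its reads may be shared with the near-identical copy USP41, so its level is less certain.

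HERC5, the main human E3 ligase for ISG15, and its relative HERC6 both fell in NF-YAl, and neither passed the test in NF-YAs. HERC6 was at 40.8, 41.3 and 42.1 CPM in the Empty libraries, 12.5, 9.81 and 9.53 in the NF-YAl libraries and 22.8, 35.6 and 37 in the NF-YAs libraries. It fell 3.92-fold in NF-YAl and did not pass the test in NF-YAs (-0.38 ± 0.16, adjusted p = 0.0925). HERC5 was at 11.8, 11.2 and 13.2 CPM in the Empty libraries, 7.9, 6.5 and 7.93 in the NF-YAl libraries and 14.1, 19.1 and 16.7 in the NF-YAs libraries. All HERC5 values of NF-YAs lay above those of Empty and all values of NF-YAl below them. HERC5 fell in NF-YAl by 0.70 on the log2 scale, its log2FC in NF-YAs, 0.46 ± 0.15, did not pass the test (adjusted p = 0.0279), and the 2 lines differed by -1.16 ± 0.15 (adjusted p = 0.000302). TRIM25, an E3 ligase for ISG15 and for the RNA sensor RIG-I, is given with the TRIM family.

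The IFIT proteins bind viral RNA with unusual 5′ ends and act in complexes with one another. All 4 fell in NF-YAl, 3 of them as DEGs, and none passed the test in NF-YAs. IFIT1 was at 137, 139 and 182 CPM in the Empty libraries, 52.9, 33.6 and 31.7 in the NF-YAl libraries and 56.1, 106 and 92.9 in the NF-YAs libraries. IFIT2 was at 128, 117 and 169 CPM in the Empty libraries, 58.9, 39.1 and 38.5 in the NF-YAl libraries and 69.1, 92.4 and 91.8 in the NF-YAs libraries. IFIT3, which stabilises IFIT1, was at 106, 99.4 and 138 CPM in the Empty libraries, 33.2, 18.2 and 21.9 in the NF-YAl libraries and 45.6, 83.2 and 75.2 in the NF-YAs libraries. In these 3 genes the groups did not overlap, and NF-YAs replicate A lay nearer to NF-YAl than the other NF-YAs libraries did. IFIT3 fell the most, 4.70-fold in NF-YAl (log2FC -2.23 ± 0.25, adjusted p = 4.38e-05), with IFIT1 at -1.96 ± 0.24 and IFIT2 at -1.61 ± 0.19. Their log2FC in NF-YAs were -0.85 ± 0.23 for IFIT1 (adjusted p = 0.0139), -0.71 ± 0.18 for IFIT2 (adjusted p = 0.0101) and -0.75 ± 0.24 for IFIT3 (adjusted p = 0.0269). IFIT5, the less inducible relative, was at 33.2, 33.7 and 40.1 CPM in the Empty libraries, 22.2, 17.4 and 22.3 in the NF-YAl libraries and 27.1, 35.5 and 35.5 in the NF-YAs libraries. IFIT5 fell 1.73-fold in NF-YAl and overlapped Empty in NF-YAs. IFIT1, IFIT2 and IFIT3 overlap the antisense gene LIPA on chromosome 10 in the annotation. The library kit was stranded, and whether strand was used in counting is not given in the sources used here.

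The IFITM proteins sit in membranes and hinder fusion of enveloped viruses. Their values differed from member to member. IFITM1, found mostly at the cell surface, was at 198, 197 and 211 CPM in the Empty libraries, 60.9, 48.4 and 59.3 in the NF-YAl libraries and 84.8, 139 and 149 in the NF-YAs libraries. It fell in both lines, 3.59-fold in NF-YAl (adjusted p = 1.63e-05) and 1.63-fold in NF-YAs (adjusted p = 0.00746). IFITM3, found in endosomes, was at 239, 230 and 226 CPM in the Empty libraries, 105, 105 and 120 in the NF-YAl libraries and 199, 250 and 282 in the NF-YAs libraries. It fell 2.11-fold in NF-YAl (adjusted p = 5.02e-05), while its NF-YAs libraries lay on both sides of Empty (log2FC 0.07 ± 0.12, adjusted p = 0.674). IFITM2 was at 49, 48.1 and 49.7 CPM in the Empty libraries, 31.8, 39.1 and 39 in the NF-YAl libraries and 57.7, 77.1 and 75.3 in the NF-YAs libraries. IFITM2 rose in NF-YAs (log2FC 0.52 ± 0.12, adjusted p = 0.00591), and this call was lost without any 1 of Empty A, Empty B, Empty C, NF-YAs B or NF-YAs C. All 3 were lower in NF-YAl than in NF-YAs, by 1.14, 0.93 and 1.15 on the log2 scale in the order IFITM1, IFITM2 and IFITM3. These genes are related neighbours on chromosome 11, so reads may have been shared among them. Their sequences were not compared, so how far this holds for each of them is not known.

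**Figure D2:**
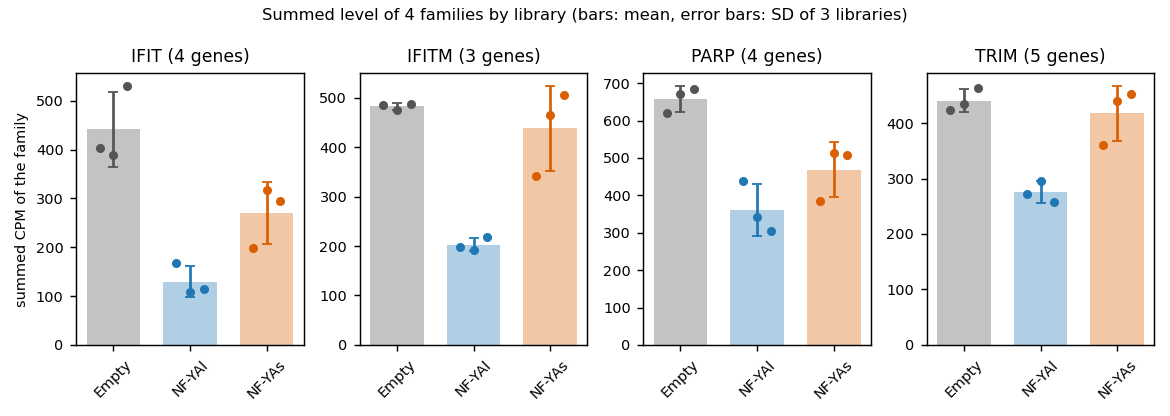
Summed CPM of the IFIT, IFITM, PARP and TRIM families on the y axis, by group on the x axis, with 1 point per library, bars at the mean of 3 libraries and error bars of 1 SD. NF-YAl lies below Empty in all 4 panels, at 108 to 167 CPM against 390 to 530 CPM for IFIT, while for TRIM the NF-YAs replicates B and C (439 and 452 CPM) lie within the range of Empty (424 to 464) and replicate A (361) lies below it.

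MX1 and MX2 are dynamin-like GTPases that trap viral nucleocapsids and, for MX2, block nuclear import of HIV. MX2 was at 41.7, 45.6 and 54.7 CPM in the Empty libraries, 5.46, 5.52 and 5.42 in the NF-YAl libraries and 7.22, 20.8 and 13.7 in the NF-YAs libraries. The NF-YAl values of MX2 were nearly equal, while the NF-YAs values spread widely with replicate A the lowest. MX2 had the largest fall of the 46 genes in both lines, 8.65-fold in NF-YAl (log2FC -3.11 ± 0.29, adjusted p = 1.2e-05) and 3.40-fold in NF-YAs (-1.76 ± 0.27, adjusted p = 0.000332). MX1 was at 167, 201 and 192 CPM in the Empty libraries, 30, 29.5 and 28.9 in the NF-YAl libraries and 69.4, 156 and 130 in the NF-YAs libraries. MX1 fell 6.34-fold in NF-YAl (adjusted p = 7.59e-06), and in NF-YAs all its libraries were below Empty without passing the test (log2FC -0.65 ± 0.21, adjusted p = 0.0328). The antisense gene TMPRSS2 overlaps MX1 in the annotation and also fell in both lines, from 14.4 ± 3.45 CPM in Empty.

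Among the small IFI proteins, all 5 were DEGs in NF-YAl. IFI27, a mitochondrial and nuclear membrane protein, was at 16.4, 11.2 and 12.5 CPM in the Empty libraries, 1.91, 1.02 and 2.46 in the NF-YAl libraries and 5.44, 7.76 and 9.08 in the NF-YAs libraries. IFI27 fell 7.42-fold in NF-YAl, second to MX2, and gave -0.84 ± 0.26 in NF-YAs (adjusted p = 0.024). IFI6, a mitochondrial and ER protein that opposes apoptosis, was at 304, 283 and 259 CPM in the Empty libraries, 122, 75 and 118 in the NF-YAl libraries and 169, 238 and 291 in the NF-YAs libraries. Its NF-YAs values ran from well below Empty to within its range. IFI44L, a negative regulator of the interferon response, was at 95.5, 82.5 and 105 CPM in the Empty libraries, 28.6, 19.5 and 20 in the NF-YAl libraries and 28.9, 46.2 and 49.6 in the NF-YAs libraries. NF-YAs replicate A of IFI44L lay close to the highest NF-YAl value. IFI44L fell 4.17-fold in NF-YAl and 2.27-fold in NF-YAs, as 1 of the 4 DEGs there. IFI44, its paralog, was at 55.8, 54.8 and 69.7 CPM in the Empty libraries, 20.3, 13.7 and 15.2 in the NF-YAl libraries and 31.8, 42.2 and 41.1 in the NF-YAs libraries. IFI44 fell in both lines, by 1.88 and 0.65 on the log2 scale. IFI35, which acts with NMI, was at 30.2, 29.2 and 37 CPM in the Empty libraries, 12.9, 11.6 and 9.94 in the NF-YAl libraries and 17.3, 27.8 and 27.6 in the NF-YAs libraries. IFI35 fell 2.80-fold in NF-YAl and did not pass the test in NF-YAs.

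DDX60, a helicase-like cofactor of RNA sensing, was at 55.1, 49.7 and 58.9 CPM in the Empty libraries, 20.1, 16.2 and 18.5 in the NF-YAl libraries and 30.2, 40.9 and 40 in the NF-YAs libraries. DDX60L, its neighbour on chromosome 4, was at 91.3, 70.5 and 95.2 CPM in the Empty libraries, 18.6, 20.7 and 24.1 in the NF-YAl libraries and 36.6, 49.7 and 41.7 in the NF-YAs libraries. Both genes fell in both lines with no overlap between groups. DDX60L fell 4.05-fold and 2.01-fold and DDX60 2.99-fold and 1.47-fold, in NF-YAl and NF-YAs. HELZ2, a helicase and nuclear receptor coactivator, was at 523, 564 and 625 CPM in the Empty libraries, 287, 243 and 169 in the NF-YAl libraries and 277, 498 and 447 in the NF-YAs libraries. HELZ2 fell 2.45-fold in NF-YAl, with NF-YAl replicate A above NF-YAs replicate A.

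SAMD9, which arrests translation of poxviruses and limits growth, was at 170, 165 and 224 CPM in the Empty libraries, 37.8, 29.8 and 41 in the NF-YAl libraries and 78.7, 103 and 96.7 in the NF-YAs libraries. SAMD9 fell 5.14-fold in NF-YAl (adjusted p = 1.49e-06) and 2.01-fold in NF-YAs (adjusted p = 0.000333). SAMD9L, the adjacent paralog on chromosome 7, was at 59.6, 54.6 and 74.4 CPM in the Empty libraries, 22.8, 16.1 and 14.2 in the NF-YAl libraries and 33.3, 50.9 and 44.5 in the NF-YAs libraries. It kept the same order of groups, with a fall of 3.57-fold in NF-YAl and a log2FC of -0.55 ± 0.19 in NF-YAs that did not pass the test (adjusted p = 0.0381).

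**Figure D3:**
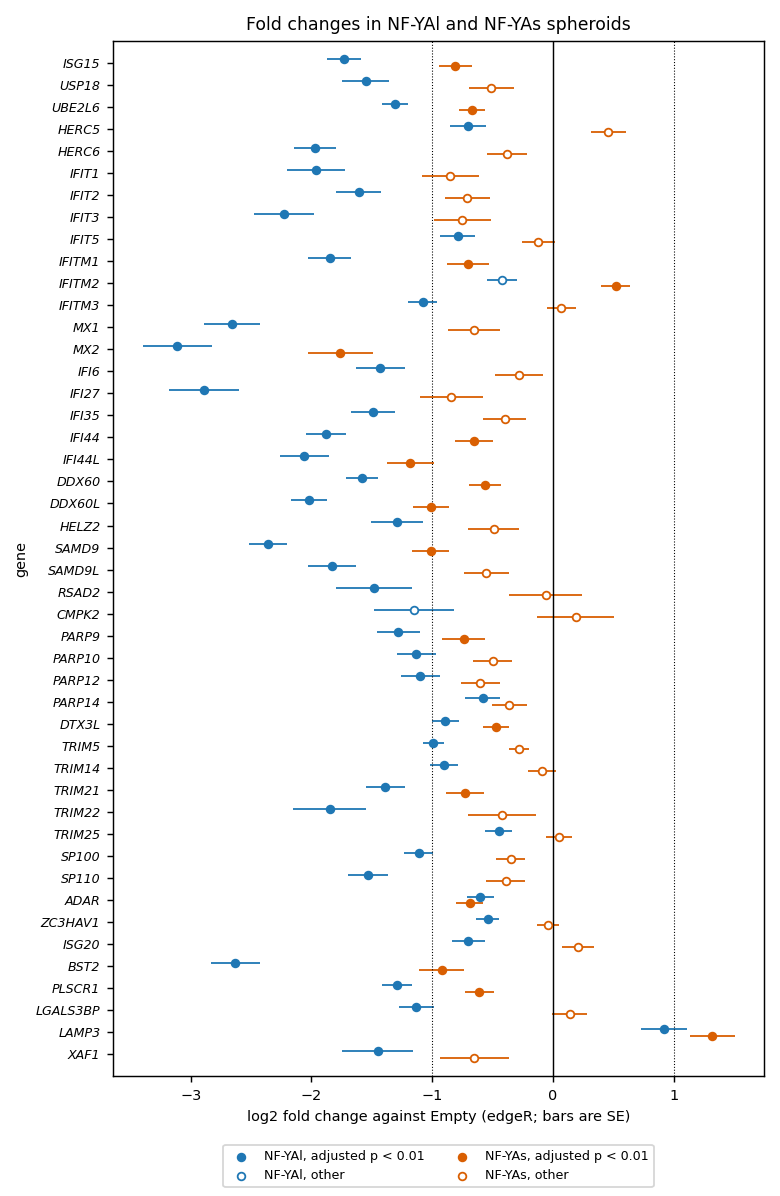
Log2 fold change against Empty on the x axis, with SE, for the 46 tested genes on the y axis, in NF-YAl (blue) and NF-YAs (orange). Filled points have an adjusted p under 0.01 and dotted lines mark a log2FC of 1 in either direction. The blue points lie to the left of the orange points in 45 of the 46 rows, ADAR being the exception.

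RSAD2 (viperin) makes a chain-terminating nucleotide from CTP, and CMPK2 is the mitochondrial nucleotide kinase encoded beside it on chromosome 2. RSAD2 was at 19.8, 16 and 27 CPM in the Empty libraries, 11.6, 5.77 and 5.5 in the NF-YAl libraries and 12.5, 23.1 and 24.4 in the NF-YAs libraries. It fell 2.78-fold in NF-YAl (adjusted p = 0.0037) and was within the range of Empty in NF-YAs replicates B and C. The fall of RSAD2 lost its call without Empty replicate A, Empty replicate C or NF-YAl replicate B. CMPK2 was at 13.1, 12.1 and 18.7 CPM in the Empty libraries, 10.9, 4.38 and 4.64 in the NF-YAl libraries and 11.2, 19.7 and 19.1 in the NF-YAs libraries. NF-YAl replicate A of CMPK2 was well above replicates B and D and close to the Empty values. None of the 3 comparisons of CMPK2 passed the test. RSAD2 and CMPK2 overlap on opposite strands.

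The PARP proteins of the set are mono-ADP-ribosyltransferases or, for PARP9, the partner of the ubiquitin ligase DTX3L. PARP9 was at 163, 169 and 185 CPM in the Empty libraries, 93.1, 62.9 and 57.5 in the NF-YAl libraries and 81.8, 115 and 112 in the NF-YAs libraries. DTX3L, which shares its promoter region with PARP9 on chromosome 3, was at 201, 193 and 204 CPM in the Empty libraries, 123, 97.7 and 102 in the NF-YAl libraries and 129, 155 and 148 in the NF-YAs libraries. Both fell in both lines, PARP9 by 1.28 and 0.74 and DTX3L by 0.89 and 0.47 on the log2 scale. PARP10 was at 126, 146 and 135 CPM in the Empty libraries, 61.5, 68.7 and 55.7 in the NF-YAl libraries and 68.5, 113 and 107 in the NF-YAs libraries. PARP12, a stress granule protein, was at 24.3, 25.2 and 27.2 CPM in the Empty libraries, 11.8, 12.5 and 11.3 in the NF-YAl libraries and 12.5, 20.9 and 17.2 in the NF-YAs libraries. These 2 were DEGs in NF-YAl, 2.19-fold and 2.15-fold lower, and did not pass the test in NF-YAs. In both genes NF-YAs replicate A was within or near the range of NF-YAl. PARP14, which modifies STAT signaling, had the smallest log2FC of the family in NF-YAl, with group means of 324 ± 16, 216 ± 48.9 and 253 ± 27.5 CPM (SD, n = 3) in Empty, NF-YAl and NF-YAs and a log2FC of -0.58 ± 0.14 (adjusted p = 0.00865). None of the 4 PARP genes passed the test between NF-YAl and NF-YAs by edgeR, with log2FC from -0.63 to -0.22.

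All 5 TRIM genes fell in NF-YAl, over a range from -1.85 ± 0.30 for TRIM22 to -0.45 ± 0.11 for TRIM25. TRIM22, a nuclear restriction factor, was at 21.6, 24.8 and 25.4 CPM in the Empty libraries, 9.65, 5.97 and 4.48 in the NF-YAl libraries and 10, 21.1 and 22.5 in the NF-YAs libraries. NF-YAs replicates B and C of TRIM22 were close to the lowest Empty values and replicate A was near NF-YAl replicate A. TRIM21, the cytosolic antibody receptor, was at 27.1, 29.4 and 33.4 CPM in the Empty libraries, 11.2, 10.6 and 12.5 in the NF-YAl libraries and 14.3, 22.4 and 17.4 in the NF-YAs libraries. TRIM21 was the 1 TRIM gene that fell in NF-YAs too (log2FC -0.73 ± 0.16, adjusted p = 0.00337). TRIM5, a retroviral restriction factor that overlaps TRIM22 in the annotation, was at group means of 67.2 ± 1.34, 33.8 ± 0.774 and 55.2 ± 2.69 CPM (SD, n = 3) in Empty, NF-YAl and NF-YAs. Its fall in NF-YAl was -0.99 ± 0.08, just under the limit for a DEG. TRIM14 was at 54.4 ± 2.92, 29.1 ± 2.66 and 51.1 ± 6.8 CPM (SD, n = 3) in Empty, NF-YAl and NF-YAs. TRIM25 was at 265 ± 16.2, 194 ± 17.8 and 275 ± 31.8 CPM (SD, n = 3) in Empty, NF-YAl and NF-YAs. In the direct comparison 4 of the 5 were lower in NF-YAl, all but TRIM21.

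SP100, the organising protein of the nuclear bodies named after it and PML, was at 103, 110 and 125 CPM in the Empty libraries, 57.8, 47.8 and 51.7 in the NF-YAl libraries and 76.2, 96.8 and 92.4 in the NF-YAs libraries. SP110, of the same family, was at 26.9, 31.1 and 36.1 CPM in the Empty libraries, 12.7, 10.5 and 9.57 in the NF-YAl libraries and 19, 26.9 and 25.9 in the NF-YAs libraries. Both were DEGs in NF-YAl, 2.15-fold and 2.88-fold lower, with no overlap between the 3 groups, and neither passed the test in NF-YAs.

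BST2 (tetherin), which holds budding virions at the cell surface, was at 90.7, 80.7 and 84.3 CPM in the Empty libraries, 15.5, 11.1 and 14.9 in the NF-YAl libraries and 32.1, 43.1 and 59.4 in the NF-YAs libraries. BST2 fell 6.17-fold in NF-YAl and 1.90-fold in NF-YAs, and no groups overlapped. PLSCR1, a phospholipid scramblase, was at 61.5, 66 and 80 CPM in the Empty libraries, 27.2, 27.6 and 29.9 in the NF-YAl libraries and 39, 49 and 47.9 in the NF-YAs libraries. PLSCR1 fell in both lines, by 1.29 and 0.61 on the log2 scale. LGALS3BP, a secreted galectin-binding glycoprotein, was at 429, 404 and 425 CPM in the Empty libraries, 227, 186 and 162 in the NF-YAl libraries and 399, 424 and 561 in the NF-YAs libraries. It fell 2.19-fold in NF-YAl, while in NF-YAs it lay on both sides of Empty (0.14 ± 0.14, adjusted p = 0.492). XAF1, which binds the apoptosis inhibitor XIAP, was at 13, 9.85 and 14.2 CPM in the Empty libraries, 5.89, 2.41 and 5.3 in the NF-YAl libraries and 5.66, 8.11 and 9.77 in the NF-YAs libraries. XAF1 fell 2.74-fold in NF-YAl, a call that was lost without Empty replicate A or Empty replicate C.

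LAMP3, a lysosomal membrane glycoprotein that is also induced by hypoxia and by the unfolded protein response, went the other way. LAMP3 was at 6.29, 5.36 and 5.08 CPM in the Empty libraries, 8.7, 10.6 and 12.4 in the NF-YAl libraries and 11.5, 17.2 and 13 in the NF-YAs libraries. Every library of both lines lay above every Empty library. LAMP3 rose by 0.92 ± 0.19 in NF-YAl (adjusted p = 0.00264) and by 1.32 ± 0.19 in NF-YAs (adjusted p = 0.0002) on the log2 scale, and the first call was lost without Empty replicate B or Empty replicate C.

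The remaining genes act on RNA, and none of the 3 was a DEG. ADAR, which edits adenosine to inosine in double-stranded RNA, was at 579, 618 and 614 CPM in the Empty libraries, 429, 411 and 351 in the NF-YAl libraries and 327, 389 and 405 in the NF-YAs libraries. ADAR fell in both lines, 1.52-fold in NF-YAl and 1.62-fold in NF-YAs, and its log2FC between the lines was 0.09 ± 0.11 (adjusted p = 0.602). ZC3HAV1 (ZAP), which binds CpG-rich RNA for decay, was at 144 ± 9.82, 99 ± 5.63 and 141 ± 9.58 CPM (SD, n = 3) in Empty, NF-YAl and NF-YAs. ISG20, a 3′ exonuclease, was at 21.9 ± 1.31, 13.4 ± 2.48 and 25.4 ± 1.73 CPM (SD, n = 3) in Empty, NF-YAl and NF-YAs. Both fell in NF-YAl, by 0.54 and 0.70 on the log2 scale, and neither passed the test in NF-YAs.

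EPSTI1 and RTP4 did not pass the filter on low counts. EPSTI1 had 0 counts in all Empty libraries, 7, 2 and 3 in those of NF-YAl and 1, 7 and 6 in those of NF-YAs. RTP4, a chaperone of taste and opioid receptors, had 9, 7 and 9 counts in the Empty libraries, 7, 3 and 3 in those of NF-YAl and 6, 29 and 34 in those of NF-YAs. Neither was tested with the other genes, and NF-YAs replicate A of RTP4 stood apart from replicates B and C.

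Per length, as TPM within Empty, ISG15 (1040 ± 152, SD, n = 3) was followed by IFITM3 (509 ± 101), IFI6 (467 ± 114) and IFITM1 (402 ± 60.1), and these 3 did not differ beyond their spread. LGALS3BP came next at 224 ± 42.1 TPM, then BST2 at 111 ± 25.2 and ADAR at 105 ± 13.3, which overlapped. All but EPSTI1 were above 0 TPM in Empty. TPM were not used in the main tests of gene levels between groups, since the small RNAs RN7SL1, RN7SL2 and RN7SK took 13.0% of the TPM in NF-YAl replicate D and 26.7% to 40.5% in the other libraries. They were used for the shares of transcripts within a gene and for limma as an alternative.

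Isoforms were examined for 2 genes, ADAR and ZC3HAV1. The p150 transcripts of ADAR, its interferon-inducible form, took 38.8%, 38.6% and 33.5% of its TPM in Empty, then 33.5%, 32.1% and 29.0% in NF-YAl. In NF-YAs they took 27.4%, 34.8% and 41.7%. The groups overlapped or touched, and the share was 37% ± 3.04 in Empty and 31.5% ± 2.31 in NF-YAl (SD, n = 3, exact permutation p = 0.2, adjusted 0.3). The difference between NF-YAs and Empty, -2.35 percentage points, turned to 1.29 without NF-YAs replicate A. For ZC3HAV1 the share is that of the long form, 1 of its 2 transcripts, and is not a measure of an inducible form. The long form took 59.7%, 57.8% and 57.3% of the TPM of ZC3HAV1 in Empty, then 69.2%, 61.5% and 64.7% in NF-YAl. In NF-YAs it took 52.5%, 44.8% and 42.5%. The groups did not overlap, with NF-YAl above and NF-YAs below Empty. Each of the 3 comparisons gave an exact two-sided permutation p = 0.1, the smallest that 3 against 3 libraries allow, and 0.2 after adjustment over the 6 tests made.

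Genes upstream of these effectors were examined as lists. Of 8 interferon genes, IFNA1 and IFNE passed the filter. IFNE, a constitutive epithelial interferon, was at 10.3 ± 0.729 CPM (SD, n = 3) in Empty, at 11.6 ± 0.745 in NF-YAl and at 6.82 ± 0.637 in NF-YAs. It fell in NF-YAs (log2FC -0.60 ± 0.14, adjusted p = 0.00481). IFNB1 had at most 8 counts in a library, at 0.296 ± 0.0213 CPM in Empty against 0.0723 ± 0.0441 CPM in NF-YAl and 0.0154 ± 0.0266 in NF-YAs, and IFNG had none. Of 9 receptors and kinases, JAK2 fell in both lines (log2FC -0.71 ± 0.14 and -0.80 ± 0.14), IFNGR2 fell in NF-YAs, and none was a DEG. The type I receptor chains did not pass the test, with log2FC in NF-YAl of 0.11 ± 0.12 for IFNAR1 and -0.48 ± 0.12 for IFNAR2.

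Of the 9 tested STAT and IRF genes considered, 4 fell and 1 rose in NF-YAl, and 3 fell and 1 rose in NF-YAs. Over all tested genes, 9.54% fell and 10% rose in NF-YAl, and 10.5% fell and 12.1% rose in NF-YAs, and these shares are also the background of the lists that follow. IRF9, the DNA-binding part of ISGF3, was at 61.8 ± 8.04 CPM (SD, n = 3) in Empty, at 29.8 ± 4.98 in NF-YAl and at 39.8 ± 5.81 in NF-YAs. IRF9 fell in both lines, by 1.05 and 0.64 on the log2 scale. STAT2 did not pass the test in either line, with log2FC of -0.50 ± 0.17 (adjusted p = 0.0364) and -0.02 ± 0.17 (adjusted p = 0.935). IRF7, which amplifies interferon genes, was at 102 ± 9.35 CPM (SD, n = 3) in Empty, at 36.9 ± 3.18 in NF-YAl and at 66.6 ± 15 in NF-YAs. IRF7 fell by 1.46 and 0.61, and IRF1 by 0.64 and 0.53. IRF5 rose in both lines, by 1.53 ± 0.20 and 1.20 ± 0.20 on the log2 scale, from 3.0 ± 0.402 CPM in Empty.

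**Figure D4:**
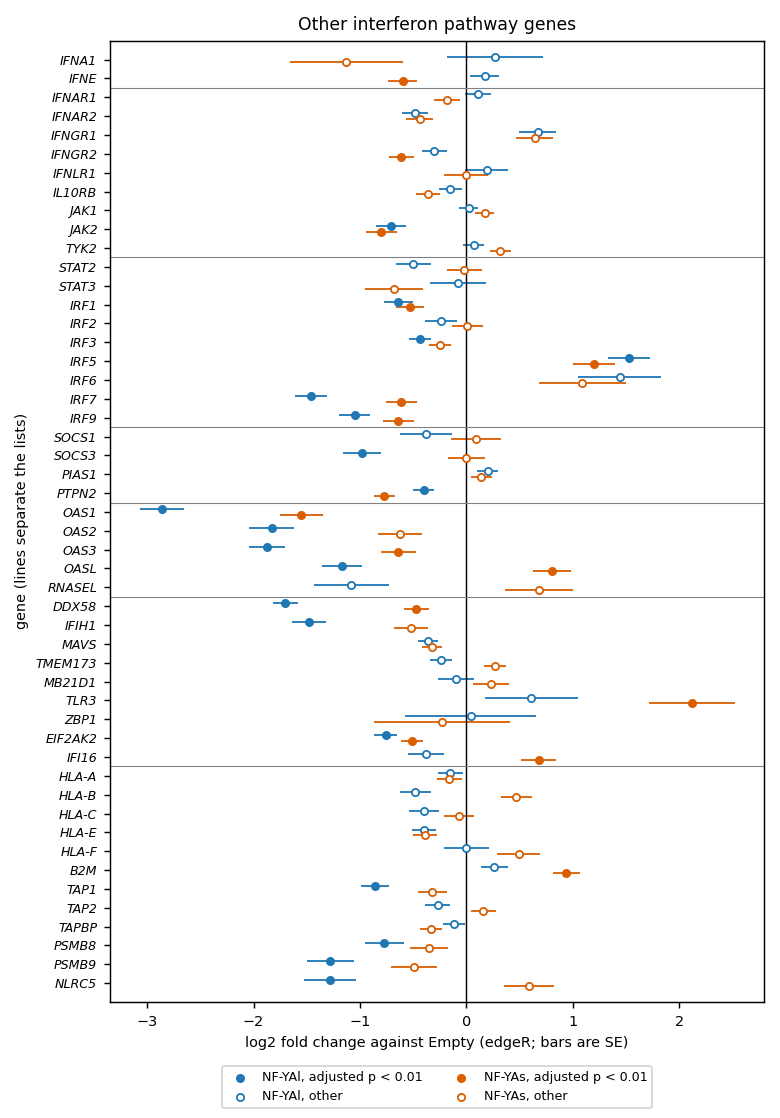
Log2 fold change against Empty on the x axis, with SE, for other genes of the interferon pathway on the y axis, in NF-YAl (blue) and NF-YAs (orange), with lines between the lists. Filled points have an adjusted p under 0.01. IRF7, IRF9 and OAS1 are filled and to the left of 0 in both lines, while OASL is to the left in NF-YAl and to the right in NF-YAs.

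Of the 5 genes of the OAS and RNase L system, which degrades RNA, 4 were DEGs downward in NF-YAl (against 3.50% of all genes). OAS1 was at 154 ± 27.5 CPM (SD, n = 3) in Empty, at 21.2 ± 3.37 in NF-YAl and at 52.5 ± 14.5 in NF-YAs. It fell by 2.86 and 1.55 on the log2 scale. OAS3 fell in both lines and OAS2 in NF-YAl. OASL was at 31 ± 7.95 CPM (SD, n = 3) in Empty, at 13.8 ± 1.3 in NF-YAl and at 54 ± 10.2 in NF-YAs. OASL fell in NF-YAl (log2FC -1.17 ± 0.19) and rose in NF-YAs (0.80 ± 0.18, adjusted p = 0.00426). Of 9 tested sensors, 3 fell in NF-YAl (against 9.54% of all genes), namely DDX58 (RIG-I, -1.70 ± 0.12), IFIH1 (MDA5, -1.48 ± 0.16) and EIF2AK2 (PKR, -0.76 ± 0.10). In NF-YAs 2 sensors fell (against 10.5%), and IFI16 and TLR3 rose (against 12.1%). Of 12 genes of class I antigen presentation, 4 fell in NF-YAl (against 9.54%), with NLRC5, the transactivator of class I genes, at -1.28 ± 0.24 and PSMB9 at -1.28 ± 0.22. In NF-YAs B2M rose by 0.94 ± 0.13 and no class I gene fell. Of the 4 negative regulators, SOCS3 and PTPN2 fell in NF-YAl and PTPN2 in NF-YAs, and none was a DEG.

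The effector genes varied together across libraries. Over 1035 pairs of the 46 genes, the median Pearson r across the 9 libraries was 0.914, which includes the differences between groups. After each value was set relative to its group mean, the median r was 0.642 and 68.5% of pairs were above 0.5. This is a description over 9 libraries that the pairs share. Pairs of other genes were not examined, so no background value stands beside it. NF-YAs replicate A, the lowest of its group in all 46 genes, is part of these values. The genes lie on many chromosomes, and the median log2FC of the nearest tested genes around each (95 to 100 genes, members of the set left out) ran from -0.30 to 0.46 in NF-YAl and from -0.43 to 0.45 in NF-YAs, against -1.41 and -0.51 for the median of the 46 genes.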

How the data were processed

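RNA-seq libraries of PC3 spheroids were made from total RNA with a stranded kit. The authors aligned reads to human transcripts of hg19 with Bowtie2 within RSEM, and deposited tables of genes and of transcripts, with an expected count and a TPM value in each row. The deposited expected counts are RSEM's estimates and were not normalized. RSEM corrected the deposited TPM for effective length and set their total equal in all libraries, and the authors' transcript tables also hold each isoform's percent of its gene. The read depth per library is given with the results.

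After rounding of the expected counts, genes were tested by edgeR 4.0.16 (R 4.3.3) with filterByExpr, TMM scaling, 1 quasi-likelihood fit over all 9 libraries and Benjamini-Hochberg adjustment over 17108 genes. DEGs needed |log2FC| above 1 and adjusted p under 0.01, as in the study's methods, which used DESeq2. SEs are |log2FC| over the square root of F. The fit was tested on simulated data for NF-YAl against Empty, where 199 of 200 changed genes were recovered among 17039. All planted changes were beyond the fold limit of a DEG and in genes with ample counts, with the same dispersion for every gene. Smaller changes and shifts that many genes share in a library were not simulated, so the recovery says nothing about them. Transcript shares were compared with exact permutation tests. Groups and letters came from the sample titles. Gene positions are from GENCODE on GRCh37. The genes and lists were chosen with earlier results of these data known. All genes of the set are named, with values per library for DEGs and for the IFIT and IFITM families. Of the pathway lists, STAT2, IRF9, IRF1, IRF7 and NFYA were named by rule with DEGs of at least 5 CPM, and some other genes were named after their values were seen. A few genes of these lists are not reported here. Alternatives were DESeq2 1.42.0, RLE scaling, other filters, fits of 2 groups, a replicate block, an effective length offset, limma 3.58.1 on log2(TPM + 1), leaving out each library, and a limit of 0.05 on adjusted p. A rescaled TPM test was added after seeing the data.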

Additional observations from a re-analysis of the deposited data

Results flagged for a closer look

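Levels differed between the 2 overexpressing lines for 22 genes, counted as those with an edgeR adjusted p under 0.01 and |log2FC| above 1 when NF-YAl and NF-YAs were compared with each other. This difference is the same as that between their log2FC against the shared Empty libraries. All 22 were lower in NF-YAl. Isoform, line and NFYA level (341 ± 49.3 CPM in NF-YAl, 261 ± 5.71 in NF-YAs) cannot be told apart, since each isoform rests on 1 line. The log2FC, NF-YAl minus NF-YAs, was -2.05 for IFI27, -2.01 for MX1, -1.70 for BST2, -1.59 for HERC6 and -1.48 for IFIT3. It was -1.43 for TRIM22, -1.41 for RSAD2, -1.36 for SAMD9, -1.35 for MX2, -1.28 for SAMD9L, -1.27 for LGALS3BP and -1.24 for IFI44. It was -1.16 for HERC5, -1.15 for both IFI6 and IFITM3, -1.14 for both IFITM1 and SP110, and -1.11 for IFIT1. The smallest differences were -1.08 for IFI35, -1.04 for USP18, -1.02 for DDX60 and -1.01 for DDX60L. NF-YAs replicate A, the lowest of its group in 46 of 46 genes, is part of each value, and leaving it out moved the median over the 46 genes from -0.97 to -1.11. Without NF-YAs replicate B or C the median was -0.89 or -0.91, the count of 22 dropped to 14 or 13, and IFIT1, MX2, RSAD2, USP18 and TRIM22 lost their call in each case. HERC5 lay above Empty in all 3 NF-YAs libraries and below it in all 3 NF-YAl libraries.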

How the results depend on the processing

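Under DESeq2, RLE scaling, the count minimum of 10, and the effective length offset, the 60 gene and comparison pairs that were DEGs kept their direction and their call. Without a filter, SAMD9 in NF-YAs fell short of the fold limit. Not every same-letter pair of libraries had a correlation of deviations above 0.1, so the replicate letters were not taken to pair the samples (mean 0.0754, from -0.0684 to 0.233, against -0.0261, from -0.211 to 0.15, for different letters). With the letter as a replicate block, 31 genes were DEGs downward in NF-YAl, 3 in NF-YAs and 16 in NF-YAl against NF-YAs, and 21 genes fell in NF-YAs in place of 15. RSAD2 in NF-YAl then had an edgeR adjusted p of 0.0143. With limma on log2(TPM + 1), 20 genes fell in NF-YAl, all DEGs, and 0 rose, 1 fell in NF-YAs, as a DEG, and 1 rose, and 5 were lower in NF-YAl than in NF-YAs, all DEGs. TPM moved the median of all genes by 0.21, 0.13 and 0.08 in these comparisons, and after rescaling, chosen after seeing the data, the DEGs downward numbered 32, 2 and 13. DESeq2 gave 2 DEGs upward in NF-YAs, the second being EPSTI1, which has 0 counts in Empty. A fit of only the 2 groups, and an adjusted p under 0.05, each gave 25 genes that fell in NF-YAs. In the fit of only the 2 groups, IFIT1, MX2, RSAD2, USP18 and TRIM22 lost their call between NF-YAl and NF-YAs (edgeR adjusted p from 0.0113 for USP18 to 0.022 for TRIM22). When each library was left out in turn, the DEGs downward ranged from 31 to 35 in NF-YAl, from 1 to 4 in NF-YAs and from 13 to 28 in NF-YAl against NF-YAs. The genes that fell ranged from 37 to 43, from 8 to 21 and from 21 to 40, those that rose from 0 to 1 in NF-YAl and from 1 to 3 in NF-YAs, and the DEGs upward from 0 to 1 and from 1 to 2. Leaving out NF-YAs replicate A lowered the downward counts of NF-YAs, raised its upward counts and raised the downward counts of NF-YAl against NF-YAs, to 28 DEGs. The causes of these changes were not tested. The depth limits EPSTI1 and RTP4, for which 3 counts correspond to 0.118 to 0.162 CPM.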
